A study of Mus musculus with 11 samples.

Results

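Pparg, Cebpa, Cebpb, Ebf1, Ebf2, Klf15, Zfp423 and Rxra encode transcription factors that establish or maintain adipocyte identity, and these 8 of the 22129 genes obtained were chosen by name for that role. Their transcripts were measured by RNA sequencing of the whole inguinal mammary gland, the milk gland of the groin, which is embedded in fat. The 6 Knockout libraries came from mice of genotype Tsc1-fl/fl; Adipoq-Cre-Tg/+ and the 5 Wild-Type libraries from mice of genotype Tsc1-fl/fl; Adipoq-Cre-+/+. Mice of both groups thus carried floxed Tsc1 alleles, and only the Knockout mice carried the Cre recombinase transgene driven by Adipoq, the adiponectin gene, and so active in adipocytes. All mice ate normal chow, glands were taken 16 days after delivery per the labels, and the label for the postnatal day reads PND16.5. The age of these mice was not given in the sources used here. The design asks whether the transcripts of these factors differ between glands with and without the adipocyte deletion of Tsc1, a gene whose product restrains the growth-regulating kinase complex mTORC1.

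As background, fat cell formation runs through a cascade of these factors. EBF1, EBF2 and ZFP423 act in precursor cells that commit to the lineage, and C/EBPβ is induced early and helps to switch on PPARγ and C/EBPα, which then maintain each other and the genes of the mature fat cell. PPARγ binds DNA as a heterodimer with a retinoid X receptor such as RXRα, and KLF15 acts later, on glucose uptake and on the breakdown of amino acids. During lactation the adipocytes of the mammary gland lose lipid and shrink while the milk-producing epithelium fills the gland. C/EBPβ, RXRα and KLF15 are also made in many other cell types, so a transcript level in the whole gland is not that of the adipocytes alone.

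Depth lay between 25817975 and 37894237 estimated reads per library. The targeted gene Tsc1 did not separate the groups, with 8.31 to 11.9 CPM (counts relative to the library total after TMM scaling) across Knockout and 9.55 to 12.2 across Wild-Type libraries. Its difference on the log2 scale was -0.09 ± 0.11 (SE, edgeR; adjusted p = 0.772), in RNA that also comes from cells without the deletion. Markers of adipocytes were present in all libraries. The 14 adipocyte marker genes summed to 1616 to 2239 CPM across Knockout and 1173 to 1652 across Wild-Type libraries, and 0 of them was at 0 in any library. The 15 milk protein genes summed to 429633 to 623379 CPM across Knockout and 538417 to 769914 across Wild-Type libraries. Knockout 1 stood apart from the other Knockout libraries in markers of B cells, T cells and skeletal muscle. No label says whether the samples of a group came from separate litters or days, so the p-values measure only the spread between these samples. In whole-gland RNA, fewer cells of a type and less RNA per cell cannot be told apart.

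The 8 factors differed widely in abundance, with Cebpb at the top and Ebf2 at the bottom. Levels of different genes were compared in TPM, a unit scaled for transcript length, as the mean over the 11 libraries. Cebpb was the most abundant at 83.3 TPM ± 20.7 (SD, n = 11), above 97.7% of the genes with reads. Klf15 followed at 14.4 ± 3.75, Cebpa at 8.76 ± 2.60, Rxra at 4.82 ± 0.939 and Pparg at 3.11 ± 0.767 TPM (SD, n = 11 each). Lower still were Ebf1 at 0.412 ± 0.124, Zfp423 at 0.129 ± 0.0444 and Ebf2 at 0.0730 ± 0.0356 TPM (SD, n = 11 each).

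Pparg and the 4 factors above it in this order were clear of Ebf1, Zfp423 and Ebf2 in every library. The lowest Pparg level, 2.26 TPM, was above the highest Ebf1 level, 0.654 TPM, and the means differed 7.54-fold. Cebpb was also clear of Klf15, with ranges of 48.9 to 119 TPM and 10.1 to 21.1 TPM. Ebf1 was above Zfp423 in 11 of 11 libraries without overlap of the ranges. The other neighbours in the order overlapped in range. Klf15 was above Cebpa in 9 of 11 libraries, Cebpa above Rxra and Rxra above Pparg in 11 of 11, and Zfp423 above Ebf2 in 10 of 11.

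**Figure D1:**
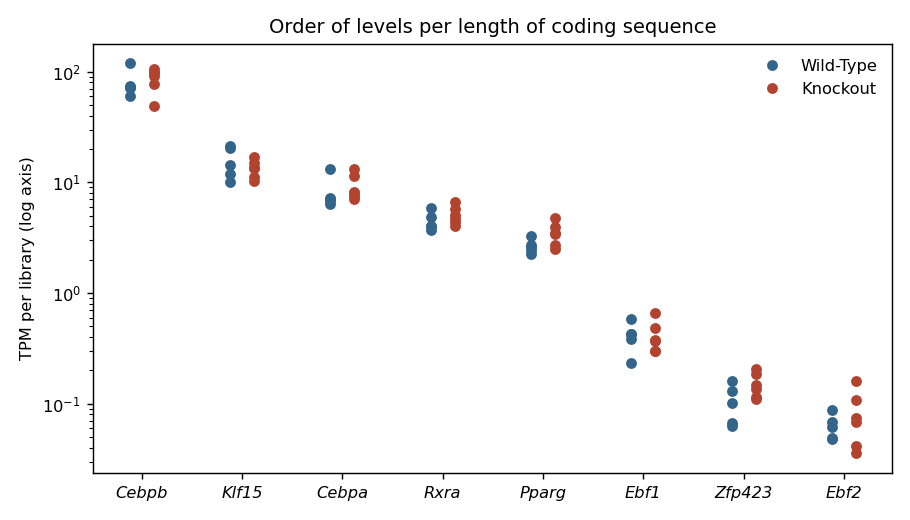
Levels of the 8 factors in TPM on a logarithmic axis, with 1 point per library (6 Knockout, 5 Wild-Type). Cebpb has the highest mean at 83.3 TPM and Ebf2 the lowest at 0.0730 TPM.

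None of the factors differed detectably between the genotypes. Of the 7 that passed the filter on low counts, 0 passed an adjusted p of 0.05 in edgeR's quasi-likelihood test, where 0.0551% of the 12709 genes tested did. At an unadjusted p under 0.05 the count was again 0 of 7, where 12.4% of all genes tested passed, and it was 1 of 7, Klf15, without Wild-Type 5. In CPM the groups overlapped for all 7, while 1.32% of all genes tested did not overlap. DESeq2, which tested all 8, also placed 0 past the threshold, where 1.08% of all genes it tested passed. The log2 fold changes, Knockout against Wild-Type, lay between -0.43 for Klf15 and 0.19 for Zfp423, with 2 above 0, 5 below 0 and a median of -0.04, beside a median of -0.01 over all genes tested. Without TMM scaling the median over all genes tested moved to 0.18, and Cebpa, Cebpb and Rxra, then at 0.15, 0.10 and 0.14, were below that median. With the level of the adipocyte markers as a term in the fit, Pparg was at 0.01, Cebpa at -0.18, Cebpb at -0.14, Klf15 at -0.22 and Rxra at 0.09.

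**Figure D2:**
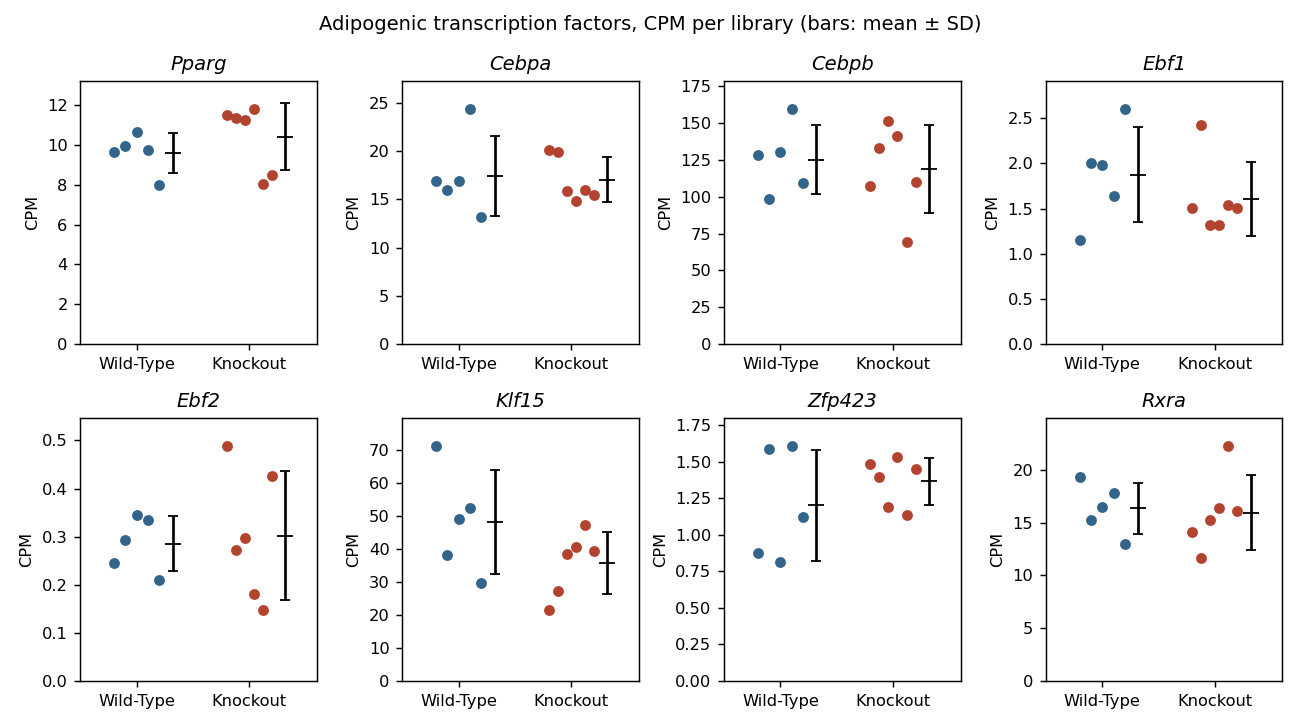
CPM of each factor by genotype, with 1 point per library (6 Knockout, 5 Wild-Type), bars at the group means and error bars of 1 SD. The points of the genotypes overlap for every factor, and Klf15 and Cebpb cover the widest CPM ranges.

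Pparg (ENSMUSG00000000440; GRCm38, chr6:115360951-115490399, plus strand) encodes PPARγ, the nuclear receptor without which fat cells do not form. In Knockout, libraries lay at 8.04 CPM at the lowest, 11.3 at the median and 11.8 at the highest. The Wild-Type libraries 1 to 5 lay at 9.67, 9.94, 10.6, 9.75 and 7.97 CPM. Knockout 1 to 4 were above every Wild-Type library, while Knockout 5 and 6, at 8.04 and 8.48 CPM, were below all Wild-Type libraries but the lowest. The means were 10.4 ± 1.67 (SD, n = 6) and 9.59 ± 0.988 CPM (SD, n = 5), or 0.12 ± 0.12 (SE) on the log2 scale (edgeR, adjusted p = 0.725). The 95% interval of the fold ran from 0.905 to 1.3. On the log2 scale Pparg was at 0.056 without Wild-Type 5, 0.19 without Knockout 5 and 0.18 without Knockout 6, and at 0.32 without TMM scaling.

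Pparg has a pair of promoters that give rise to proteins with different N-terminal ends. PPARγ1 is made in many tissues, and PPARγ2, which has 30 additional codons at its start, is largely restricted to fat. Windows around 1 start site of each form, from 250 bases before to 50 after, are shown because the form made follows from the promoter used. They are RefSeq sequences of GRCm38.p6, 5′ to 3′ on the plus strand. Capitals mark matches to TTNCNNAA, a motif of the C/EBP family, searched on both strands. One window is chr6:115360894-115361193, and its start site lies 193 bases from that of transcript Pparg-202 in the GENCODE M21 annotation. The other, chr6:115421816-115422115, has the start site of transcript Pparg-201 and ends within its coding sequence, whose first base is at 115422111. A further window, chr6:115362099-115362398, is not printed. It has the start site of transcript Pparg-206, which has the same first coding base as Pparg-202 and was listed at 0 reads in every library.
Pparg1 promoter: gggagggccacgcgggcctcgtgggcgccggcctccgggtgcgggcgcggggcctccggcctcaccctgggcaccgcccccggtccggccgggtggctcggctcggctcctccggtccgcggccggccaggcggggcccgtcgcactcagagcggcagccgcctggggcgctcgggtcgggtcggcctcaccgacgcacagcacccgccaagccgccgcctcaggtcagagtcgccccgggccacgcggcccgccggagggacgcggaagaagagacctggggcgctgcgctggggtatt
Pparg2 promoter: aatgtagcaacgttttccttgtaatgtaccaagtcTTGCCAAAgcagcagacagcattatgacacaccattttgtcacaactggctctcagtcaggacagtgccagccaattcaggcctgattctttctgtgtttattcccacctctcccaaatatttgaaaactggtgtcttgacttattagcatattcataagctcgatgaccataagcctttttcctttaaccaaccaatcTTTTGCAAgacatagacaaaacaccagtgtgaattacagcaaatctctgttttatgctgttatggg
The PPARγ1 window had a GC content of 80.3% and no match. The PPARγ2 window had a GC content of 40.3% and 2 matches, TTGCCAAA from position -215 and TTTTGCAA from position -16, counted from the start site. Of all 32851 promoter windows of this length, 40.7% hold at least 1 such match, so their presence is a description of the letters and no evidence of binding.

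The deposited estimates of the separate forms did not separate the genotypes either. The coding sequence of PPARγ1 (1425 bases) is the end of that of PPARγ2 (1515 bases), and of the 31-base words in it 0 were absent from PPARγ2, while PPARγ2 had 90 words of its own. The split between them therefore rests on few reads, and where PPARγ1 was listed at 0, in Knockout 6 and Wild-Type 1, 3 and 5, this may be a failed estimate. The PPARγ2 share of Pparg TPM was 34.4% at the lowest and 100% at the highest in Knockout libraries, at 56.7%, 83.4%, 41.0%, 34.4%, 58.8% and 100% in libraries 1 to 6. In Wild-Type libraries 1 to 5 it was 100%, 51.1%, 100%, 69.3% and 100%. The groups overlapped, and the mean share was lower in Knockout, at -21.7 percentage points (p = 0.173 by a two-sided exact permutation test). PPARγ2 itself ran from 1.21 to 3.29 TPM in Knockout and from 1.39 to 2.60 TPM in Wild-Type libraries, and PPARγ1 from 0 to 2.30 and from 0 to 1.33 TPM.

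**Figure D3:**
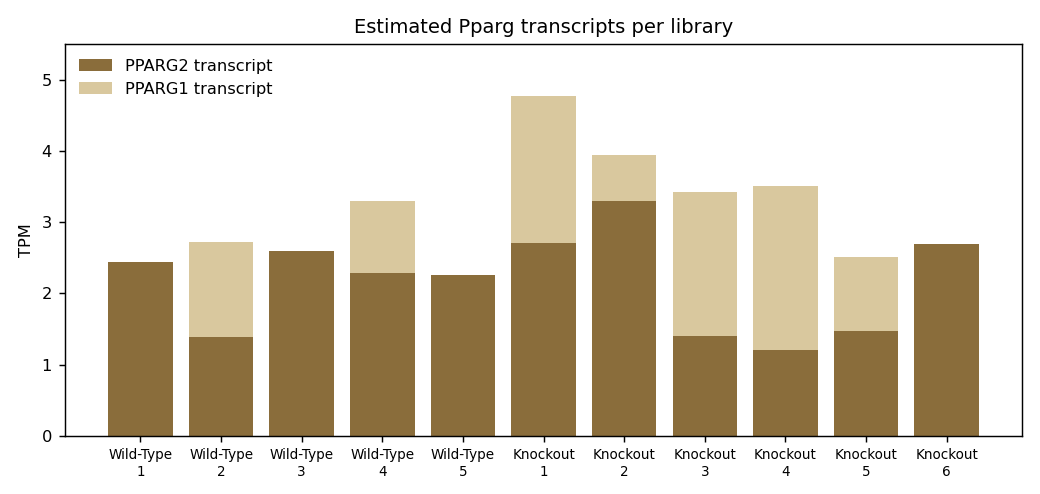
Estimated TPM of PPARγ1 and PPARγ2 transcripts stacked in each of the 11 libraries. PPARγ1 is listed at 0 in Knockout 6 and Wild-Type 1, 3 and 5, and is the larger part in Knockout 3 and 4.

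Cebpa (ENSMUSG00000034957; chr7:35119293-35121928, plus strand) encodes C/EBPα, which sustains Pparg expression and insulin-sensitive glucose uptake in fat cells. Its Knockout libraries lay at 14.9 CPM at the lowest, 15.9 at the median and 20.1 at the highest, and Wild-Type libraries 1 to 5 at 16.9, 16.0, 16.9, 24.3 and 13.2 CPM. Wild-Type 4 was the highest of all 11 libraries and Wild-Type 5 the lowest, so that the Knockout range lay inside the Wild-Type range. On the log2 scale the difference was -0.04 ± 0.14 (SE, edgeR; adjusted p = 0.940; 95% interval -0.35 to 0.27), and it was 0.12 without Wild-Type 4.

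Rxra (ENSMUSG00000015846; chr2:27676440-27762957, plus strand) encodes RXRα, the partner of PPARγ and of other nuclear receptors. In Knockout the lowest library had 11.6 CPM, the median was 15.7 and the highest 22.3, and Wild-Type libraries 1 to 5 had 19.3, 15.3, 16.49, 17.8 and 13.0 CPM. Knockout 5 held the highest and Knockout 2 the lowest value of all libraries, and the groups overlapped. On the log2 scale the difference was -0.04 ± 0.15 (SE, edgeR; adjusted p = 0.941; 95% interval -0.36 to 0.29). It was 0.0017 without Knockout 1, 0.043 without Knockout 2 and 0.028 without Wild-Type 1. All estimated reads were on the longer coding sequence, and the form that is 84 bases shorter and wholly contained in it was listed at 0 in every library.

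Cebpb (ENSMUSG00000056501; chr2:167688915-167690418, plus strand) encodes C/EBPβ, which starts the cascade in precursor cells and is also needed for the growth of milk-producing epithelium. It had the most reads of the 8 factors, 1893 to 5242 per library. Across Knockout the lowest value was 69.5 CPM, the median 122 and the highest 152, and Wild-Type libraries 1 to 5 had 128, 98.5, 130.2, 159 and 109 CPM. Knockout 5 was below every Wild-Type library, and the other Knockout libraries lay among them. On the log2 scale the difference was -0.07 ± 0.18 (SE, edgeR; adjusted p = 0.901; 95% interval -0.47 to 0.33), but 0.047 without Knockout 5 and 0.032 without Wild-Type 4. The protein-coding gene Tmem189 overlaps Cebpb on the opposite strand, and the sources used here do not give the strand setting of the quantification.

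Klf15 (ENSMUSG00000030087; chr6:90462576-90475238, plus strand) encodes a Krüppel-like factor that induces the glucose transporter GLUT4 in fat cells and enzymes of amino acid breakdown. It had the largest fold change and the smallest p of the 7 factors tested. Knockout libraries lay at 21.5 CPM at the lowest, 38.9 at the median and 47.3 at the highest, and Wild-Type libraries 1 to 5 at 71.1, 38.1, 49.1, 52.3 and 29.8 CPM. Knockout 1 and 2, at 21.5 and 27.4 CPM, were below every Wild-Type library, and Wild-Type 1 was the highest of all, but Wild-Type 5 lay below 4 of the 6 Knockout libraries. The means were 35.7 ± 9.45 (SD, n = 6) and 48.1 ± 15.7 CPM (SD, n = 5), or -0.43 ± 0.24 (SE) on the log2 scale. The unadjusted p in edgeR was 0.0971 and the adjusted p was 0.490. The 95% interval of the fold ran from 0.518 to 1.07. The log2 fold change was -0.31 without Knockout 1, -0.25 without Wild-Type 1, -0.56 without Wild-Type 5 and -0.26 without TMM scaling, and none of the alternatives placed Klf15 past the threshold (adjusted p from 0.395 to 0.832).

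Ebf1, Zfp423 and Ebf2 were measured on few reads. Ebf1 (ENSMUSG00000057098; chr11:44617317-45008091, plus strand), which encodes early B cell factor 1 and is also a gene of B cells, had 33 to 74 reads per library. Knockout libraries lay at 1.32 CPM at the lowest, 1.51 at the median and 2.42 at the highest, and Wild-Type libraries 1 to 5 at 1.16, 2.00, 1.98, 1.64 and 2.60 CPM. All Knockout libraries but Knockout 2 were below Wild-Type 2 to 5, and Wild-Type 1 was below all Knockout libraries. On the log2 scale the difference was -0.23 ± 0.22 (SE, edgeR; adjusted p = 0.708; 95% interval -0.70 to 0.25). It was -0.37 without Knockout 2, -0.36 without Wild-Type 1, -0.081 without Wild-Type 5 and -0.025 without TMM scaling. With B cell markers, r of Ebf1 over the libraries with genotype means removed was 0.49 (rho 0.32; permutation p = 0.182, adjusted 0.535). Wild-Type 5 and 2, with the highest Ebf1 of the Wild-Type libraries, also had the highest B cell marker sums of all libraries, 93.6 and 71.2 CPM, and the part of B cells in the Ebf1 values was not tested.

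Zfp423 (ENSMUSG00000045333; chr8:87661810-87959595, minus strand) encodes a zinc finger protein that marks committed fat cell precursors and keeps white fat cells from taking on thermogenic features. It had 25 to 67 reads per library. Among Knockout libraries the lowest had 1.14 CPM, the median was 1.42 and the highest 1.53, and Wild-Type libraries 1 to 5 had 0.876, 1.59, 0.817, 1.61 and 1.123 CPM. The Wild-Type libraries lay on either side of the Knockout range, 3 below all Knockout libraries and 2 above them. On the log2 scale the difference was 0.19 ± 0.21 (SE, edgeR; adjusted p = 0.749; 95% interval -0.26 to 0.64), 0.31 with a correction for transcript length and 0.01 with the adipocyte marker level as a term. It was 0.076 without Wild-Type 3, 0.095 without Wild-Type 1, 0.33 without Wild-Type 4, 0.30 without Wild-Type 2 and 0.36 without TMM scaling.

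Ebf2 (ENSMUSG00000022053; chr14:67233292-67430918, plus strand), which encodes a factor of brown and beige fat cell precursors, had only 4 to 22 reads per library and did not pass the filter. Knockout libraries lay at 0.147 CPM at the lowest, 0.285 at the median and 0.489 at the highest, and Wild-Type libraries 1 to 5 at 0.245, 0.292, 0.346, 0.334 and 0.211 CPM. The Knockout range enclosed the Wild-Type range. Without the filter its difference on the log2 scale was 0.10 ± 0.36 (SE, edgeR; adjusted p = 0.938). Annotated non-coding genes overlap the spans of Pparg, Cebpa, Ebf1 and Ebf2 on the opposite strand. Whether they overlap the coding sequence was not checked. Where they do, reads of both cannot be told apart if the quantification ignored strand. Zfp423 shared 0.348% of its 31-base words with other genes, and the other 7 factors shared 0.

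Variation between libraries differed among the factors. The coefficient of variation of CPM over the 11 libraries was lowest for Pparg at 14.0%, followed by Cebpa at 18.0%, Rxra at 18.3%, Cebpb at 21.2% and Zfp423 at 21.7%. Klf15 varied most among the 5 factors with the most reads, at 32.9%, and its highest library was 3.30-fold above its lowest. Ebf1 at 27.0%, Ebf2 at 34.6% and the value of Zfp423 rest on few reads, whose counting error adds to the variation.

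Klf15 and Rxra varied together across libraries in CPM. The correlations of log2 CPM were computed over the 11 libraries after subtracting each genotype mean, for the 28 pairs of factors. For Klf15 and Rxra, Pearson's r was 0.83 (permutation p = 0.00228, adjusted over the 28 pairs 0.0638) and Spearman's rho was 0.92 (permutation p = 0.000320, adjusted 0.00896). The rank correlation passed the threshold and the linear one did not. Without Knockout 1 and Wild-Type 5, the libraries farthest from the median of Klf15, r was 0.86. In TPM in place of CPM, r was 0.67 (adjusted permutation p = 0.145) and rho was 0.57 (adjusted permutation p = 0.389), so the call on rho did not hold in TPM. In CPM both factors had their lowest Knockout values in Knockout 1 and 2 and their highest in Knockout 5. Among Wild-Type libraries both were highest in library 1 and lowest in library 5, again in CPM. In TPM this did not hold for Rxra, which was at 5.73 in Knockout 1, below only Knockout 5. Its highest Wild-Type value in TPM was 5.82, in library 4.

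None of the other 27 pairs passed the threshold on either coefficient, in CPM. Ebf1 varied opposite to both Klf15, with r of -0.71 (rho -0.66; permutation p = 0.0238, adjusted 0.233), and Rxra, with r of -0.70 (rho -0.65; permutation p = 0.0250, adjusted 0.233), in CPM. Without Knockout 2 and Wild-Type 1, these values were -0.60 and -0.49. In TPM r was -0.68 with Klf15 (-0.59 without those libraries) and -0.31 with Rxra (permutation p = 0.373), where 0.00032 was left without them, so the value with Rxra rests on the unit and on those libraries. For Pparg and Cebpb r was 0.68 (rho 0.48; permutation p = 0.0421, adjusted 0.294), and it was 0.43 without Knockout 5 and 6, so the CPM value rests on those libraries. In TPM r was 0.76 (rho 0.75; permutation p = 0.00851, adjusted 0.104), and 0.71 without Knockout 1 and 5. For Pparg and Cebpa, the pair that maintain each other in fat cells, r was 0.40 in CPM (rho 0.20; permutation p = 0.228, adjusted 0.804) and 0.75 in TPM (rho 0.52; permutation p = 0.0111, adjusted 0.104). For the heterodimer partners Pparg and Rxra, r was -0.34 in CPM (rho -0.37; permutation p = 0.383, adjusted 0.804), 0.22 without Knockout 5 and 6, and -0.011 in TPM, so no direction held.

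**Figure D4:**
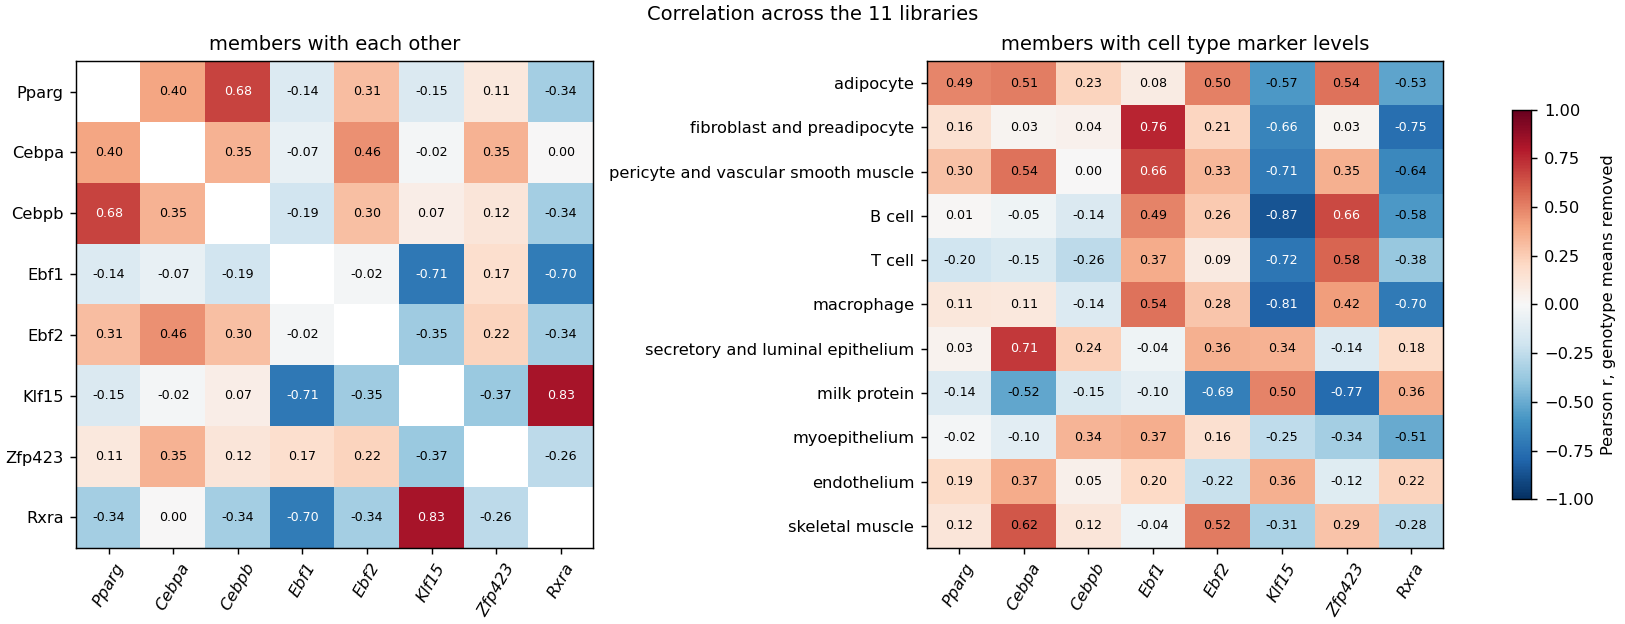
Pearson's r, on a colour scale from -1 to 1, between log2 CPM of the factors with one another and with the mean level of each cell type marker list, over 11 libraries with genotype means removed. The highest value between factors is 0.83 for Klf15 and Rxra, and the lowest with a marker list is -0.87 for Klf15 and B cell markers.

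The promoter windows of Klf15 and Rxra are shown because the rank correlation of these factors passed the threshold in CPM, though not in TPM. Both are RefSeq sequences of GRCm38.p6, 250 bases before to 50 after the start site, 5′ to 3′ on the plus strand, at chr6:90462326-90462625 for Klf15 and chr2:27676951-27677250 for Rxra. Capitals mark matches to CCACNCCC, a motif of Krüppel-like factors, searched on both strands.
Klf15 promoter: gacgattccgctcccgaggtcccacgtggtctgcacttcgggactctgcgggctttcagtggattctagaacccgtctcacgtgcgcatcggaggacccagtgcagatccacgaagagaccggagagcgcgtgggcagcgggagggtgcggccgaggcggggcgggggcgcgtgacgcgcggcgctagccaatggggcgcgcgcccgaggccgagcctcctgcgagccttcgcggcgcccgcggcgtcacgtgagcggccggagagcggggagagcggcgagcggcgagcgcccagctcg
Rxra promoter: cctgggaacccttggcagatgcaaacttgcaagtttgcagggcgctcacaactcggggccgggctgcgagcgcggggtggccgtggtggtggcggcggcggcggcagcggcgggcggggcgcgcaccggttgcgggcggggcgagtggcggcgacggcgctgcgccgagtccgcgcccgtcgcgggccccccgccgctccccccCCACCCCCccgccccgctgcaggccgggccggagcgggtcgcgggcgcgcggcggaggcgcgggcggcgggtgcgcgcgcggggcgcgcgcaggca
Both windows were rich in G and C, at 73.3% and 83.0%. The Rxra window held 1 match, CCACCCCC from position -46, and the Klf15 window held none. Over the 12 windows listed for 7 of the factors, 4 held CCACNCCC, which 17.6% of all windows hold, and 4 held TTNCNNAA, against 40.7%. The EBF motif (TCCC and GGGA with any 2 bases between) and the PPARγ-RXR element (AGGTCA repeated with any 1 base between), which 0.904% and 0.0396% of all windows hold, were found in 0 of the 12. None of these motifs overlapped another in the windows printed. A match describes the letters of the window, and its lack says nothing about binding elsewhere.

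Markers of other cell types moved with some factors, and their part in the values above was not tested. Over the 88 combinations of a factor and a marker list, 0 passed the threshold after adjustment. Klf15 was lower where B cell markers were higher (r -0.87, rho -0.65; permutation p = 0.00135, adjusted 0.0937), and r was -0.72 without Knockout 1 and Wild-Type 5. With macrophage markers its r was -0.81 (rho -0.65; permutation p = 0.00480, adjusted 0.106), and it was -0.72 with T cell, -0.71 with pericyte and -0.66 with fibroblast markers (adjusted permutation p = 0.225, 0.214 and 0.254). For Rxra, r was -0.75 with fibroblast, -0.70 with macrophage, -0.64 with pericyte and -0.58 with B cell markers (adjusted permutation p = 0.225, 0.225, 0.293 and 0.293). The 10 B cell marker genes summed to 1.10 to 17.6 CPM across Knockout and 2.35 to 93.6 across Wild-Type libraries, with 5 of the 10 at 0 in some library. The 6 B cell genes tested were lower in Knockout with a median log2 fold change of -2.77, and 0 of them passed the threshold. The 9 macrophage genes summed to 103 to 191 CPM across Knockout and 121 to 162 across Wild-Type libraries, with 0 of them at 0 in any library.

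Zfp423 was lower where milk protein transcripts were higher (r -0.77, rho -0.79; permutation p = 0.00213, adjusted 0.0937), and r was -0.74 without Wild-Type 1 and 3. Ebf1 moved with markers of fibroblasts and preadipocytes (r 0.76, rho 0.68; permutation p = 0.00403, adjusted 0.106), whose 12 genes summed to 334 to 723 CPM across Knockout and 260 to 522 across Wild-Type libraries. Without Knockout 2 and Wild-Type 1 this r was 0.65. With the adipocyte markers themselves, r was 0.49 for Pparg, 0.51 for Cebpa, 0.54 for Zfp423 and 0.50 for Ebf2, with adjusted permutation p-values of 0.535, 0.387, 0.254 and 0.563. It was 0.23 for Cebpb and 0.082 for Ebf1, and -0.57 for Klf15 and -0.53 for Rxra (adjusted permutation p = 0.353 and 0.476). Without the libraries farthest from the median of each factor, r was 0.13 for Pparg (Knockout 5 and 6), 0.35 for Cebpa (Knockout 1 and Wild-Type 4) and 0.57 for Zfp423 (Wild-Type 1 and 3). It was then -0.20 for Ebf2 (Knockout 1 and 5), -0.51 for Klf15 (Knockout 1 and Wild-Type 5) and -0.13 for Rxra (Knockout 2 and 5), so the values of Pparg, Ebf2 and Rxra rest on those libraries. Cebpa had a higher r with markers of secretory and luminal epithelium, 0.71 (rho 0.68; permutation p = 0.0252, adjusted 0.225). With skeletal muscle markers its r was 0.62 and with pericyte markers 0.54 (adjusted permutation p = 0.254 for each). Without Knockout 1 and Wild-Type 4 these values were 0.79, 0.44 and 0.54.

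Target genes of PPARγ and C/EBPα in fat were mostly on the higher side in Knockout, and none passed the threshold in edgeR. Those that are not also adipocyte markers lay on both sides of 0, with log2 fold changes from -0.47 to 1.33. Of 29 tested, 19 had a log2 fold change above 0, where 48.4% of all genes tested did, and the median was 0.18, beside -0.01 over all genes tested. At an unadjusted p under 0.05, 9 were higher, where 6.32% of all genes tested were, and 0 were lower, where 6.07% were. Without TMM scaling 25 of 29 were above 0, where 82.9% of all genes tested were. DESeq2 placed 5 of them past the threshold, all higher in Knockout, where 0.643% of all genes it tested were, among them Cfd, Plin4, Fabp4 and Adipoq, with adjusted p-values from 0.00492 to 0.04997. The target list shares 12 genes with the adipocyte marker list, 40.0% of the 30 targets and 85.7% of the 14 markers, so the lists do not give separate values. Of 13 adipocyte markers tested, 11 had a log2 fold change above 0 with a median of 0.35, and their part in the values of the target genes was not tested. At an unadjusted p under 0.05, 7 of the 13 were higher. Without TMM scaling 11 of 13 were above 0, where 82.9% of all genes tested were, at a median of 0.53 beside 0.18. Marker medians were also above 0 for fibroblasts (0.32), luminal epithelium (0.28), myoepithelium (0.23), endothelium (0.06) and skeletal muscle (2.23). They were below 0 for milk protein (-0.22), pericytes (-0.04), macrophages (-0.05), T cells (-1.39) and B cells (-2.77).

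Cfd, which encodes the secreted protease adipsin, had 625.5 CPM at the lowest, 858 at the median and 1227 at the highest in Knockout libraries and 361 to 656 in Wild-Type libraries. In 5 of the 6 Knockout libraries it was above every Wild-Type library, and the difference was 0.78 ± 0.18 (SE) on the log2 scale (edgeR, adjusted p = 0.218). Plin4, which encodes a lipid droplet coat protein, was at 1.65 to 5.46 CPM across Knockout and 0.850 to 2.94 across Wild-Type libraries (log2 difference 1.33 ± 0.36 SE; edgeR, adjusted p = 0.250). Fasn, the gene of fatty acid synthase, which the milk-producing epithelium also expresses at high level, had the most reads of the list. It was at 2663 to 7670 CPM across Knockout and 4799 to 7393 across Wild-Type libraries, or -0.44 ± 0.23 (SE) on the log2 scale (edgeR, adjusted p = 0.468). Adipoq, the gene of adiponectin and the source of the Cre promoter, was at 42.0 to 58.3 CPM and 29.5 to 43.3 CPM, and Fabp4, a fatty acid carrier, at 196 to 276 CPM and 163 to 207 CPM.

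Over the 11 libraries with genotype means removed, r of the 29 target genes with Pparg ran from -0.47 to 0.63. It was above 0 for 17 of 29 with a median of 0.13, where 48.2% of all genes tested were above 0 with a median of -0.01. With Cebpa r ran from -0.81 to 0.75 and was above 0 for 19 of 29 with a median of 0.15, where 48.4% of all genes tested were above 0 with a median of -0.02. All these values come from the same libraries and are descriptions without a test.

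**Figure D5:**
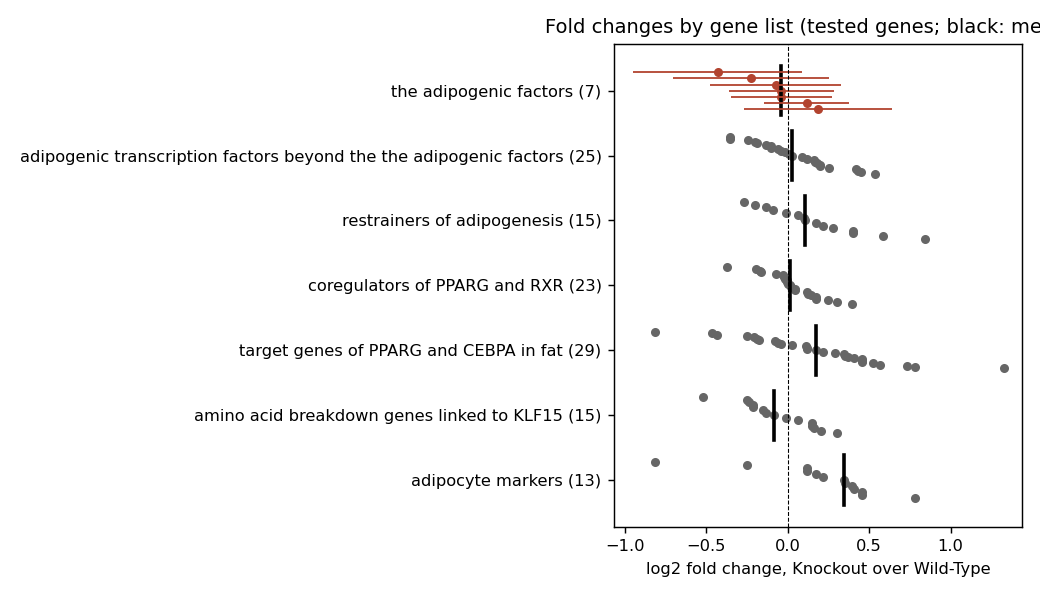
Log2 fold change, Knockout against Wild-Type, of each tested gene in the list of factors and in each gene list around them, with 1 point per gene and a bar at the list's median. The medians are -0.04 for the 7 factors, 0.18 for the target genes of PPARγ and C/EBPα and 0.35 for the adipocyte markers.

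Genes of amino acid breakdown linked to KLF15 lay on both sides of 0. Of 15 tested, 6 had a log2 fold change above 0 and 9 below, where 48.4% of all genes tested were above 0, and the median was -0.09. Of them 3 were lower at an unadjusted p under 0.05, where 6.07% of all genes tested were, and 0 were higher. After adjustment 0 passed in edgeR and in DESeq2. Without TMM scaling 10 of 15 were above 0, where 82.9% of all genes tested were, and the median was 0.10, below the 0.18 of all genes tested. The 3 genes with the smallest p-values act at the branched-chain ketoacid dehydrogenase step, which was not tested as a set. Next in p were Mccc1 and Aldh4a1, both higher in Knockout. Their log2 differences were 0.30 ± 0.14 and 0.21 ± 0.10 (SE; edgeR, adjusted p = 0.404 and 0.415). Bckdk, the kinase that restrains the complex, was at 42.1 to 56.1 CPM across Knockout and 50.8 to 61.2 across Wild-Type libraries (log2 difference -0.21 ± 0.09 SE; edgeR, adjusted p = 0.363). The subunit gene Bckdhb was at 8.70 to 13.4 and 12.4 to 14.8 CPM (-0.25 ± 0.11 SE; edgeR, adjusted p = 0.372), and Bckdha at 98.0 to 134 and 125 to 153 CPM (-0.24 ± 0.10 SE; edgeR, adjusted p = 0.379). Ivd, which encodes isovaleryl-CoA dehydrogenase of leucine breakdown, was at 47.0 to 73.6 and 57.9 to 78.4 CPM (-0.21 ± 0.11 SE; edgeR, adjusted p = 0.478).

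Across libraries, with genotype means removed, r of these genes with Klf15 ran from -0.26 to 0.86. It was above 0 for 12 of the 15 with a median of 0.37, where 48.5% of all genes tested were above 0 with a median of -0.02. With Rxra r ran from -0.23 to 0.94 and was above 0 for 12 of 15 with a median of 0.47, where 48.8% of all genes tested were above 0. Aldh6a1, chosen after its values were seen, had the highest r with both. The points share the same 11 libraries, Klf15 and Rxra themselves correlated at 0.83, and no p is given.

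Among 25 tested transcription factors of fat cell formation beyond the 8, 14 had a log2 fold change above 0, with a median of 0.02, and 0 passed the threshold in edgeR or DESeq2. At an unadjusted p under 0.05, 2 were higher and 2 lower, or 16.0% of the list beside 12.4% of all genes tested. Without TMM scaling 21 of 25 were above 0, beside 82.9% of all genes tested. Rxrb, a further retinoid X receptor, was at 16.8 to 20.002 CPM across Knockout and 19.7 to 22.7 across Wild-Type libraries (log2 difference -0.20 ± 0.07 SE; edgeR, adjusted p = 0.310), with 5 of 6 Knockout libraries below every Wild-Type library. Zfp467, a zinc finger factor that favours fat over bone cells, was at 8.73 to 10.5 and 10.4 to 13.4 CPM (-0.24 ± 0.09 SE; edgeR, adjusted p = 0.327). Stat5a, which carries prolactin and growth hormone signals, was at 98.5 to 178 and 69.9 to 127 CPM (0.43 ± 0.19 SE; edgeR, adjusted p = 0.379). Srebf1, an activator of lipid synthesis, had the highest mean CPM of the list, at 85.2 to 227 and 107 to 184 CPM (-0.10 ± 0.24 SE; edgeR, adjusted p = 0.889).

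Of 15 tested genes listed here as restrainers of fat cell formation, 10 had a log2 fold change above 0, with a median of 0.11. At an unadjusted p under 0.05, 3 were higher, where 6.32% of all genes tested were, and 0 passed after adjustment in edgeR or DESeq2. How each of them acts in these glands was not tested. Without TMM scaling 13 of 15 were above 0, beside 82.9% of all genes tested. Gata2, which holds precursor cells back, was at 0.443 to 1.25 CPM across Knockout and 0.211 to 0.607 across Wild-Type libraries (log2 difference 0.84 ± 0.32 SE; edgeR, adjusted p = 0.342). Gata3, which is also the leading factor of luminal mammary epithelium, was at 34.8 to 56.1 and 35.7 to 38.6 CPM (0.28 ± 0.12 SE; edgeR, adjusted p = 0.369). Id2, an inhibitor of helix-loop-helix factors, was at 10.4 to 26.2 and 9.39 to 17.5 CPM (0.59 ± 0.25 SE; edgeR, adjusted p = 0.372). Ctnnb1, which encodes the Wnt signal transducer β-catenin, was at 167 to 199 and 162 to 182 CPM (0.11 ± 0.07 SE; edgeR, adjusted p = 0.530). The luminal epithelium markers, which include genes of the cells that express Gata3, had 8 of 10 genes above 0 with a median of 0.28, and their part in the Gata3 value was not tested.

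Among 23 tested coregulators of PPARγ and RXR, 13 had a log2 fold change above 0, with a median of 0.02, and 0 passed the threshold in edgeR or DESeq2. At an unadjusted p under 0.05, 2 were higher and 1 lower, or 13.0% of the list beside 12.4% of all genes tested. Without TMM scaling 21 of 23 were above 0, beside 82.9% of all genes tested. Cited2, a transcriptional co-activator, was at 87.9 to 139 CPM across Knockout and 69.7 to 105 across Wild-Type libraries (log2 difference 0.39 ± 0.13 SE; edgeR, adjusted p = 0.300). Cdk5, a kinase that phosphorylates PPARγ, was at 10.1 to 12.7 and 12.2 to 13.4 CPM (-0.19 ± 0.08 SE; edgeR, adjusted p = 0.351), with 5 of 6 Knockout libraries below every Wild-Type library. Med14, a subunit of the Mediator complex that contacts PPARγ, was at 14.5 to 18.3 and 10.5 to 15.6 CPM (0.25 ± 0.11 SE; edgeR, adjusted p = 0.372), and the corepressor Hdac3 at 85.8 to 96.8 and 88.6 to 102 CPM (-0.02 ± 0.06 SE; edgeR, adjusted p = 0.931).

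The genes whose pattern over the 11 libraries was most like that of each factor were found among 11104 other genes with a mean of at least 1 CPM (11105 for Ebf2, which is itself below that level), by Pearson's r with genotype means removed. For Klf15 they were Tom1, Ubr2 and Gpr160, with r of 0.97, 0.95 and 0.94. For Rxra they were Aldh6a1, Apba3 and Cenpb, with r of 0.94, 0.94 and 0.93. For Pparg they were Nt5c3, Cacna1a and Gid4, with r of 0.90, 0.84 and 0.83, and for Cebpa they were Prdm4, Utp20 and Rnf139, with r of 0.92, 0.90 and 0.89. Nearest to Cebpb were Lsm11, Ctsf and Sft2d1, with r of 0.96, 0.92 and 0.92, and nearest to Ebf1 were Ssc5d, Sfn and Med23, with r of 0.92, 0.92 and 0.89. Krba1, Fam107b and Sp100 were nearest to Zfp423, with r of 0.92, 0.88 and 0.88, and Slc29a4, Stard3 and Dusp8 to Ebf2, with r of 0.93, 0.92 and 0.90. With so many genes and so few libraries, such values say only which genes lay closest.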

How the data were processed

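RNA from 11 inguinal mammary glands had been made into strand-specific libraries, per the labels' protocols. Per the file headers, each deposited table gave, per transcript, its length, effective length, TPM and estimated count of reads. The submitters' processing notes name Salmon 1.3.0, DESeq2 1.28.1 and the build GRCm38.p6. The index was not given in the sources used here, and 94.3% of 56855 transcripts compared had a listed length within 3 bases above their coding length, so mostly coding sequence was measured. The authors also deposited a table of normalized gene values, used here as a signal on their scale for 1 alternative without a test.

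The estimated counts were summed per gene through GENCODE M21 (57378 of 58204 transcripts matched, the rest holding at most 0.272% of a library's reads) and rounded. Genes were filtered with filterByExpr, scaled by TMM and tested with the quasi-likelihood F test of edgeR 4.0.16 (R 4.3.3), with no term but genotype, and p-values were adjusted by Benjamini-Hochberg over 12709 genes at a threshold of 0.05. DESeq2 1.42.0 was an alternative. Replicates differed beyond counting noise in all 25 pairs (chi-square per degree of freedom 21.9 to 93.7). The script was tested on simulated data. Correlations used log2 CPM with a prior count of 2 and 100000 permutations. Promoter sequences and start sites are from RefSeq (GRCm38.p6). The 8 factors, the gene lists and the tests were chosen with earlier results of these data known. Named from each pathway list were the 3 genes with the smallest p and the 2 with the highest mean CPM, and for each factor the 3 genes most like it. Marker lists are given mostly by sums and counts. For 1 gene under this rule the values are not reported here. Alternatives chosen after seeing the data were library totals without TMM, DESeq2 with transcript length factors, the authors' values and correlations with list genes. Adipoq, Fabp4, Aldh6a1, Mccc1 and Aldh4a1 were named after their values were seen.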

Additional observations from a re-analysis of the deposited data

Results flagged for a closer look

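In sets of values from 1 group, a library that lay far from the others of its genotype was looked for by the gap to its nearest neighbour relative to the whole range. Of 86 sets tested, 7 held such a library, where chance gives about 4.3. Among the factors this applied to Ebf1, which was at 2.42 CPM in Knockout 2 and at 1.32 to 1.54 CPM in the other Knockout libraries. Knockout 1 stood apart in 4 sets. Its B cell markers summed to 17.6 CPM against 1.10 to 3.58 CPM in the other Knockout libraries, its T cell markers to 10.3 CPM against 1.67 to 4.26 CPM, and its skeletal muscle markers to 2549 CPM against 2.89 to 368 CPM. The B cell gene Cd37 was at 2.80 CPM there, against 0.367 to 1.08 CPM. Among the genes around the factors, Plin4 was at 2.94 CPM in Wild-Type 1 against 0.850 to 1.41 CPM in the other Wild-Type libraries, and Zfp467 at 13.4 CPM in Wild-Type 2 against 10.4 to 10.95 CPM.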

How the results depend on the processing

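None of the 8 factors passed the threshold under any alternative that tested it, and without Wild-Type 5 Klf15 had an unadjusted p under 0.05. The count of genes past the threshold, 7 in all, was 145 with DESeq2, 141 with DESeq2 and transcript length factors, 1 with the adipocyte marker level as a term, and from 0 (without Knockout 3 or without Knockout 6) to 28 (without Knockout 2) when 1 library was left out. With the replicate block, for which Knockout 6 has no partner and was dropped, it was 0, at 1022 genes with an unadjusted p under 0.05. The replicate numbers are not known to pair the mice, and same-numbered libraries correlated at -0.22 to 0.19. With the block Cebpa was at 0.015 (-0.0039 without Knockout 6 alone), and no factor passed the threshold. The PPARγ2 share difference was -29.2 percentage points with the block (exact permutation p = 0.125) and the same without Knockout 6 alone.

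The sign of 3 small log2 fold changes turned. Without TMM scaling Cebpa was at 0.15, Cebpb at 0.10 and Rxra at 0.14, and Rxra was at 0.093 with the adipocyte marker term. With 1 library left out Cebpa ran from -0.12 to 0.12, Cebpb from -0.16 to 0.047 and Rxra from -0.15 to 0.043. Among the target genes of PPARγ and C/EBPα, DESeq2 called 5 and DESeq2 with length factors 4, against 0 in edgeR. The same fits called 3 and 3 adipocyte markers and 2 and 1 milk protein genes, and the length factors 2 B cell genes. In TPM in place of CPM, r changed sign for Pparg with Ebf1 (0.29), Cebpa with Ebf1 (0.42), Cebpa with Klf15 (0.075), Cebpb with Ebf1 (0.16), Cebpb with Klf15 (-0.013), Ebf1 with Ebf2 (0.31), Ebf2 with Rxra (0.15) and Zfp423 with Rxra (0.27). The cause of these changes was not tested. Ebf1, Ebf2 and Zfp423 had at most 74 reads in any library, and how far depth limits their values was not tested.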
